A study of Brassica napus with 18 samples.

Results

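Leaf transcript levels of a bnagrp3 mutant of oilseed rape (Brassica napus) were compared with those of wild type (WT) after 4 h in 200 mM NaCl. The comparison holds 6 of the 18 libraries of the series, 3 of the mutant and 3 of WT, chosen by their labels and not by any measured value. Plants of both genotypes were raised in nutrient solution for 3 weeks and the aerial part was taken, from which poly(A) RNA was sequenced. The mutant is 1 line, named bngrp3#2 in the study's design, and the labels do not say which GRP3 copies carry the mutation or of which kind it is. The remaining 12 libraries are the same genotypes in mock and after 8 h in NaCl, 3 libraries each, and serve here as a background for the 4 h values. Mock columns carry the heading 0 h, and a mock taken after 4 h was not analysed here.

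Glycine-rich protein 3 (GRP3) is a small secreted protein of the plant cell wall. In Arabidopsis it binds the extracellular part of wall-associated kinase 1 (WAK1), a receptor that spans the plasma membrane and contacts pectin. Salt first lowers the water available to a leaf and later loads it with sodium. Leaves answer the first phase by making abscisic acid (ABA), which closes stomata and switches on genes for protective proteins, and by storing compatible solutes such as proline and raffinose. B. napus carries an A and a C subgenome, so most genes come in several near-identical copies, and the assignment of reads that copies share is not given in the sources used here. Values of single copies are uncertain for that reason, and the difference of the summed level of all genes of a product, its sum, is given with most of them where the table assigns the copy to a product of several genes. Of 95 called copies named below with such a sum, 57 had a sum called in the same direction, 7 a sum called in the opposite direction and 31 a sum that was not called.

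Values are TPM, transcript abundances scaled for gene length and library total, and levels are set beside each other between genes on that scale, which is per length. Differences are bnagrp3 minus WT on the log2(TPM + 1) scale, where 1 unit is a 2-fold change for well expressed genes and less than that for weak ones. A gene was called at an adjusted p under 0.05 (limma, Benjamini-Hochberg over all genes tested). The labels name replicates without saying that they are separate plants, so each p measures only the spread between these libraries. In bulk leaf tissue, fewer cells of a type and less RNA per cell cannot be told apart.

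The 3 WT libraries at 4 h were less alike than the 3 of the mutant. Correlations across genes of log2(TPM + 1) lay between 0.952 and 0.956 within bnagrp3 and between 0.888 and 0.94 within WT. WT replicates 1 and 2 were the least alike pair. With the mutant libraries WT replicate 1 correlated at 0.825, WT replicate 2 at 0.893 to 0.896 and WT replicate 3 at 0.863 to 0.868, so replicate 1 lay farthest from the mutant and replicate 2 nearest. On the mock and 8 h libraries alone, 105 transcripts were found at 5 TPM or more in all 6 bnagrp3 libraries and at 0.2 TPM or less in at least 2 of 6 WT libraries. At 4 h, 89 of these 105 stood at 0.2 TPM or less in WT replicate 1, 47 in replicate 2 and 54 in replicate 3, against 5, 7 and 2 in the mutant. In the WT libraries used for the choice the number was 21, 44 and 66 in mock and 52, 93 and 32 at 8 h. The WT libraries of those groups thus differed from each other in this set as well. The opposite set, 170 transcripts at 5 TPM or more in all 6 WT and at 0.2 TPM or less in all 6 mutant libraries, had a median level in WT replicate 2 of 0.61 of the WT mean, against 1.28 and 1.09 in replicates 1 and 3. Counts of called members are therefore given also without WT replicate 1 and without WT replicate 2. Leaf markers were abundant and root markers low. The 7 genes with the symbol RBCS, for the Rubisco small subunit, summed to 18500 to 21300 TPM over all 6 libraries. The 2 genes with the symbol RBCS1, for the same subunit, summed to 14100 to 15700 TPM, and the root marker list to 36.8 to 41.9 TPM. The root markers CASP5 and PHT1-2 were listed at 0 in every library and COBL9, NRT2.1, PIN2 and WOX5 stayed at or under 0.47 TPM, while SCR (11.2 to 20.6 TPM), SHR (13.6 to 16.9 TPM) and PER3 (5.45 to 9.07 TPM) were detected in all 6. Among meristem markers KNAT1 (6.82 to 14.7 TPM) and STM (2.76 to 4.84 TPM) were detected in all 6. CLV3 was at 0 and WUS at or under 0.13 TPM. These markers therefore do not tell leaves from the rest of the aerial part.

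Transcripts of 13671 of 57923 tested genes differed between bnagrp3 and WT at 4 h, which is 23.6% of those tested. Of these, 5729 were higher in the mutant (9.89%) and 7942 lower (13.7%), and 4966 differed by at least 1 log2 unit. The median difference over all genes tested was -0.02. Counts of a gene list below carry the percent of its tested members, to be read against the 9.89% higher and 13.7% lower over all genes, and a share near these is not a result about the list. Without WT replicate 2 the calls numbered 16933, and with any other single 4 h library left out between 9349 and 10465. The genes called higher numbered 3441 without WT replicate 1. When only the 6 libraries at 4 h were fitted, 6371 genes were called, 2427 higher and 3944 lower.

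GRP3 copies were the first check of the labels. Of 14 genes with the name, 11 reached the level for testing, of which 4 were called lower in the mutant (36.4%) and 1 higher (9.09%). The clearest was an unplaced gene model annotated as the GRP3 short isoform (GRP3S), at 695, 1339 and 1148 TPM in WT and 0.59, 0 and 1.16 TPM in bnagrp3, a difference of -9.41 (SE 0.38, adjusted p = 3.01e-10). The same model stood at 376, 526 and 478 TPM in WT mock and 0, 0 and 0.5 TPM in mutant mock, and at 2241, 1429 and 2799 TPM in WT and 1.19, 4.39 and 4.51 TPM in the mutant at 8 h, so every mutant library of the series was far below every WT library. BnaA07G0050000ZS, also GRP3S, stood at 56.5, 97 and 71.6 TPM in WT and 4, 3.22 and 3.96 TPM in the mutant. BnaC07G0084100ZS stood at 12.8, 14.1 and 13.1 TPM against 0.8, 1.14 and 0.79 TPM. For these 3 copies the genotypes did not overlap, as for 12943 of all 13671 called genes. The differences were more than 10 times their SE (-3.98, SE 0.23, and -2.91, SE 0.16, for the latter pair). The fourth, BnaC03G0480200ZS, was weak, at 6.14, 3.47 and 4.1 against 1.64, 1.15 and 0 TPM (adjusted p = 0.02), and was not called with WT replicate 1 or bnagrp3 replicate 3 left out (highest adjusted p = 0.0953).

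The copy that was higher, Bnascaffold0025G0035900ZS, stood at 4.14, 1.3 and 6.56 TPM in WT and 49.9, 29.9 and 35.3 TPM in bnagrp3, a difference of 3.11 (SE 0.36, adjusted p = 2.44e-05). The most abundant pair, BnaC03G0480300ZS and BnaA03G0387800ZS, was not called with all libraries (adjusted p = 0.116 and 0.0671). BnaC03G0480300ZS had 3381, 2129 and 3172 TPM in WT and 2339, 2202 and 2272 TPM in the mutant, so that only WT replicate 2 overlapped the mutant range. BnaA03G0387800ZS had 2054, 1269 and 1852 against 1283, 1265 and 1319 TPM, with the same library again level with the mutant. Without WT replicate 2 both were called, at -0.53 (adjusted p = 0.00143) and -0.60 (adjusted p = 0.00114). Of the remaining copies, BnaA03G0387900ZS, BnaC03G0480400ZS, BnaC07G0083900ZS and BnaC07G0084200ZS were tested and not called (BnaC07G0084200ZS was, without WT replicate 1), and BnaA03G0234100ZS, BnaA04G0199600ZS and BnaC04G0505400ZS stayed at or under 0.72 TPM in every 4 h library. Summed over its 12 annotated genes, GRP3S stood at 6231, 4897 and 6311 TPM in WT and 3707, 3519 and 3653 TPM in bnagrp3, lower in all 3 mutant libraries (-0.67, SE 0.10, adjusted p = 0.000374). The 1 gene assigned to GRP3 itself stood at 14.5, 13.3 and 12.7 TPM in WT and 25.8, 16.1 and 16.7 TPM in bnagrp3. It was thus higher in all 3 mutant libraries but was not called (0.47, SE 0.22, adjusted p = 0.134).

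**Figure D1:**
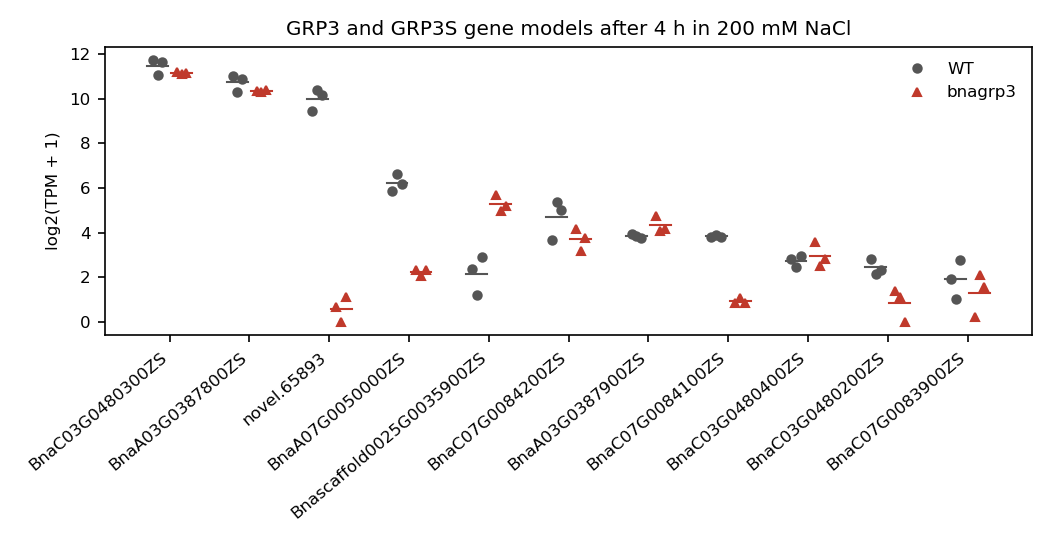
Levels of the 11 tested GRP3 and GRP3S genes at NaCl 4 h as log2(TPM + 1) on the vertical axis, ordered by level, with 1 symbol per library (circles WT, triangles bnagrp3) and a bar at each mean. The genotypes are far apart for the unplaced model, BnaA07G0050000ZS and BnaC07G0084100ZS and, in the other direction, for Bnascaffold0025G0035900ZS, while the pair of highest level nearly meets.

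Wall-associated kinases, the receptor family of the GRP3 partner WAK1, had 9 members lower (26.5%) and 3 higher (8.82%) of 34 tested. The median difference of the 34 was 0.03. An unplaced WAK1 gene model stood at 13.3, 8.3 and 11.1 TPM in WT and 0.23, 0.24 and 0.18 TPM in the mutant (-3.27, SE 0.19, adjusted p = 1.46e-08), and it was listed at 0 in all mock libraries of both genotypes. A WAK5 copy, BnaC08G0265700ZS, was lower as well, at 8.39, 2.32 and 6.26 against 0.22, 0.14 and 0.11 TPM (adjusted p = 1.35e-05). The WAK5 sum was lower as well (-2.19, adjusted p = 6.89e-06). On the summed level of 5 genes, WAK1 fell from 13.5, 10.9 and 12.1 TPM to 2.43, 1.88 and 1.91 TPM (-2.10, SE 0.17, adjusted p = 1.28e-06). The named rises were a WAKL5 copy, BnaC08G0480100ZS, at 7.26, 17.8 and 9.98 against 22.5, 21.2 and 19.8 TPM (adjusted p = 0.0174), and a WAKL20 copy, BnaC09G0620100ZS, at 5.64, 7.9 and 5.53 against 9.03, 9.43 and 9.91 TPM (adjusted p = 0.0362). The WAKL5 copy was not called with WT replicate 1, WT replicate 3 or bnagrp3 replicate 1 left out (highest adjusted p = 0.0899), nor the WAKL20 copy with any single library but WT replicate 2 left out (highest 0.129). The WAKL5 sum was higher (0.89, adjusted p = 0.0148), but not with WT replicate 1 or WT replicate 3 left out, and the WAKL20 sum was not called (0.24, adjusted p = 0.263). Without WT replicate 1 the family had 1 member higher and 7 lower, without WT replicate 2 it had 5 and 9, and without WT replicate 3 again 1 and 7.

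Late embryogenesis abundant (LEA) proteins and dehydrins, hydrophilic proteins that protect membranes and proteins in drying cells, were called lower more often than higher. Of 89 tested members 32 were lower in bnagrp3 (36.0%) and 5 higher (5.62%), and the median difference was -0.41, against -0.02 over all genes. A dehydrin RAB18 copy, BnaC02G0556300ZS, known in Arabidopsis as a marker of the ABA response, stood at 1746, 1185 and 1863 TPM in WT and 427, 299 and 197 TPM in bnagrp3 (-2.41, SE 0.28, adjusted p = 2.27e-05). All 4 RAB18 copies were called lower, and their sum fell from 9207, 6158 and 9313 TPM to 5327, 4354 and 4012 TPM (-0.83, SE 0.14, adjusted p = 0.00084), with no overlap between genotypes. An LEA14 copy, BnaC03G0000500ZS, was present only in WT, at 113, 65.6 and 141 TPM, and listed at 0 in each library of the mutant (adjusted p = 1.05e-11). The other LEA14 gene was also lower, and the sum of both fell from 218, 122 and 238 to 55.5, 38.5 and 43.3 TPM (-2.01, SE 0.24, adjusted p = 4.23e-05).

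Not every member of the class followed. An ERD10 dehydrin copy, BnaA07G0133000ZS, rose from 1765, 1840.3 and 1877 TPM to 3864, 3565 and 3352 TPM (0.97, SE 0.13, adjusted p = 7.45e-05), while its 6 genes together were not called (0.23, SE 0.14, adjusted p = 0.258). A LEA gene of the At5g17165 type, BnaC03G0349400ZS, rose from 30.2, 76.7 and 34.1 to 146, 159.7 and 162 TPM (adjusted p = 0.00283). Its sum over 6 genes was not called (0.26, adjusted p = 0.209). The summed level of the whole class was 29770, 26960 and 31470 TPM in WT and 26650, 24230 and 23920 TPM in the mutant, so the highest mutant library lay just under the lowest WT library. The number of lower members ranged from 21 without WT replicate 3 to 38 without WT replicate 2, and was 15 with the 4 h libraries fitted alone. The higher members were 9 without WT replicate 2 and 3 without bnagrp3 replicate 3. Without WT replicate 1 there were 24 lower and 5 higher.

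ABA synthesis and breakdown genes changed in both directions. Of 33 tested, 10 were lower (30.3%) and 5 higher (15.2%), with a median difference of -0.16 that shrank to -0.08 without WT replicate 3. NCED3, the dioxygenase of the rate-limiting step of ABA synthesis, had 5 of 6 copies lower and none higher. Its copy BnaC05G0457600ZS stood at 76.1, 54.7 and 77.5 TPM in WT and 34.2, 36.9 and 35.1 TPM in the mutant (-0.94, SE 0.14, adjusted p = 0.000245), and its copy BnaA01G0353200ZS at 93.2, 67.3 and 93.5 against 51.8, 48.5 and 44.6 TPM (adjusted p = 0.000561). The NCED3 sum was 361, 269.9 and 357 TPM in WT and 209, 208 and 197 TPM in bnagrp3 (-0.67, SE 0.11, adjusted p = 0.000741), without overlap. BGLU18, a glucosidase that frees ABA from its stored glucose ester, went the other way with all 4 copies higher, among them BnaA05G0167400ZS at 23.3, 20.3 and 21 against 70.1, 89.3 and 78 TPM (1.82, SE 0.12, adjusted p = 4.04e-08) and BnaC06G0067000ZS at 49.9, 82.9 and 35.4 against 142, 221 and 170.2 TPM (adjusted p = 0.00164). Its sum rose from 212, 395 and 201 TPM to 631, 934 and 754 TPM (1.57, SE 0.21, adjusted p = 0.000138). There were 6 members lower and 4 higher without WT replicate 1, and 10 and 5 without WT replicate 2. With the 4 h libraries fitted alone 4 members were lower and 3 higher.

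The ABA signalling list, made of receptors, phosphatases, kinases and transcription factors, had more members higher than lower. Of 109 tested, 19 were higher (17.4%) and 6 lower (5.5%), and the median difference was 0.02. Receptor copies led the rises: a PYL8 copy, BnaA03G0132000ZS, had 0.17, 4 and 2.02 TPM in WT and 10.8, 8.87 and 9.56 TPM in bnagrp3 (2.04, SE 0.47, adjusted p = 0.00563), and a PYL7 copy, BnaA03G0276800ZS, had 25, 31.4 and 26.6 against 58.4, 63.7 and 71.7 TPM (adjusted p = 0.00167). Their sums were higher too, by 0.72 (adjusted p = 0.00198) for PYL8 and 0.80 (adjusted p = 0.0214) for PYL7, the latter not called with WT replicate 1, WT replicate 3, bnagrp3 replicate 2 or bnagrp3 replicate 3 left out. An SRK2G kinase copy, BnaC03G0041700ZS, was listed at 0 in each library of the mutant against 7.92, 3.46 and 8.39 TPM in WT (adjusted p = 2.98e-07). The 4 SRK2G genes together were not called (0.01, adjusted p = 0.888). An ABI4 transcription factor copy, BnaC03G0231100ZS, at 8.64, 3.35 and 5.69 against 1.57, 3.06 and 2.06 TPM, was called (adjusted p = 0.0461), but not with WT replicate 1, WT replicate 3, bnagrp3 replicate 1 or bnagrp3 replicate 3 left out (highest adjusted p = 0.196). The ABI4 sum, at -1.05 (adjusted p = 0.0397), was lost with the same libraries. Higher members fell to between 8 and 13 when any library but WT replicate 2 was left out, and to 8 with the 4 h libraries alone; without WT replicate 1 there were 8 higher and 4 lower, and without WT replicate 2 there were 22 and 9.

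Proline genes, whose product is a compatible solute, were called in both directions. Of 33 tested, 8 were higher (24.2%) and 7 lower (21.2%). P5CSA, the enzyme that commits glutamate to proline under stress, had 3 of 6 copies lower, led by BnaA04G0253600ZS at 45, 13 and 30.2 TPM in WT and 6.65, 7.19 and 4.73 TPM in the mutant (-1.94, SE 0.32, adjusted p = 0.000578) and BnaA03G0194400ZS at 9.21, 11 and 10.9 against 4.21, 3.38 and 3.6 TPM (adjusted p = 2.25e-06). The sum of all P5CSA copies was 1689.8, 1429 and 1515 TPM against 1658, 1591 and 1521 TPM, a difference of 0.04 (SE 0.09, adjusted p = 0.749). A P5CSB copy, BnaC04G0313900ZS, at 1.91, 9.3 and 4.61 against 12.2, 10.7 and 12.6 TPM (adjusted p = 0.0362), and a PROC1 copy for pyrroline-5-carboxylate reductase, BnaC03G0069400ZS, at 8.21, 8.01 and 7.87 against 11, 9.93 and 12.4 TPM (adjusted p = 0.0312), were higher. The P5CSB copy was not called with any single library but WT replicate 2 left out, nor the PROC1 copy with any single library but bnagrp3 replicate 2 left out (highest adjusted p = 0.176 and 0.12). Neither sum was called, at -0.04 (adjusted p = 0.754) for P5CSB and 0.09 (adjusted p = 0.586) for PROC1. Without WT replicate 2 the list had 11 members higher and 7 lower. With any other 4 h library left out it had 3 to 5 higher and 4 or 5 lower, 3 and 4 without WT replicate 1, and 2 were called in each direction with the 4 h libraries alone.

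Transporters of sodium, potassium and protons were called at 30 higher (10.5%) and 46 lower (16.1%) of 285 tested, shares near those over all genes, and their median was -0.06. AHA2, a plasma membrane proton pump that energises ion export, had 3 of 4 tested copies higher and none lower. One of them, an unplaced model, had 0, 0 and 5.57 TPM in WT and 62.6, 89.3 and 51.2 TPM in bnagrp3 (5.16, SE 0.94, adjusted p = 0.00114), and the AHA2 sum rose from 96.9, 119.8 and 109 TPM to 194, 218 and 189.6 TPM (0.88, SE 0.11, adjusted p = 6.81e-05). A potassium transporter 6 copy, BnaC02G0247800ZS, rose from 1.9, 1.41 and 1.87 to 6.73, 6.92 and 5.37 TPM (1.43, SE 0.14, adjusted p = 3.34e-06). Its sum over 6 genes was not called (0.05, adjusted p = 0.771). Copies of the vacuolar proton pump were missing from the mutant libraries: VHA-A, its catalytic subunit, in BnaA07G0377800ZS at 14.8, 10.7 and 14.3 TPM in WT and 0 in each library of bnagrp3, and VHA-a3 in BnaC03G0685800ZS at 9.38, 6.6 and 6.77 TPM and 0 in each library (adjusted p = 4.61e-11 and 1.34e-09). Over its 9 genes VHA-A was not called, at 359, 361 and 353 against 378, 363 and 371 TPM (0.05, SE 0.05, adjusted p = 0.431). The VHA-a3 sum was lower (-0.25, adjusted p = 0.00464). Without WT replicate 2 the list had 50 members higher and 60 lower; with any other 4 h library left out it had 17 to 23 higher and 35 to 43 lower, and with the 4 h libraries alone 9 and 21.

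Aquaporins, channels for water, were called at 16 higher (18.8%) and 15 lower (17.6%) of 85 tested. They numbered 14 and 15 without WT replicate 1, 21 and 17 without WT replicate 2, and 8 and 10 with the 4 h libraries alone. A tonoplast TIP2-1 copy, BnaA01G0342600ZS, was at 60.1, 25.4 and 68.5 TPM in WT and at 0 in each library of the mutant (adjusted p = 1.13e-09). Another copy, BnaC01G0423400ZS, rose from 33.1, 65.2 and 44.8 to 100, 100.2 and 111 TPM (1.15, SE 0.19, adjusted p = 0.00041), and the difference of the TIP2-1 sum was 0.06 (SE 0.09, adjusted p = 0.661). A plasma membrane PIP2-1 copy, BnaC06G0182600ZS, was lower, at 51.4, 14.7 and 39.8 against 6.11, 4.59 and 4 TPM (adjusted p = 8.43e-05). The PIP2-1 sum was not called (-0.26, adjusted p = 0.0787). A NIP6-1 copy, BnaA07G0386200ZS, was higher, at 1.5, 5.37 and 3.17 against 8.59, 9.21 and 8.09 TPM (adjusted p = 0.00211), as was its sum (0.38, adjusted p = 0.00994).

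Jasmonate genes were higher in 25 (22.9%) and lower in 15 (13.8%) of 109 tested members, with a median difference of 0.36. The list covers the enzymes that make the hormone and the TIFY (JAZ) repressors that its receptor removes. TIFY 7 had 4 of 6 copies higher and 1 lower. BnaC02G0251900ZS stood at 20.8, 60.2 and 36.7 TPM in WT and 75.4, 107 and 97.3 TPM in bnagrp3 (1.34, SE 0.29, adjusted p = 0.00398), and BnaA07G0320600ZS at 11.9, 42.2 and 23.7 against 49.1, 64.3 and 65.1 TPM (adjusted p = 0.0221). LOX2, the chloroplast lipoxygenase that starts jasmonate synthesis, was higher on its sum, at 331, 1194 and 498 TPM in WT and 1099.8, 1562 and 1417 TPM in the mutant (1.21, SE 0.32, adjusted p = 0.0136), with WT replicate 2 inside the mutant range. One unplaced LOX2 model was lower, at 11.6, 11.7 and 9.38 against 3.71, 4.72 and 4.21 TPM (adjusted p = 0.000215), as was an unplaced TIFY 10A model at 10.8, 4 and 7.45 against 3.81, 3.96 and 3.61 TPM (adjusted p = 0.0372). The TIFY 10A sum was not called (0.09, adjusted p = 0.699).

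The jasmonate counts changed when single libraries were left out. The summed level was 1158, 2703 and 1593 TPM in the WT libraries and 2403, 3205 and 3024 TPM in the mutant libraries, so WT replicate 2 overlapped the mutant. Without it 40 members were higher and 9 lower and the median rose to 0.51. Without WT replicate 1 there were 17 higher and 11 lower and the median was 0.15, and with the 4 h libraries alone 10 and 3. Lower members numbered 6, 8 and 9 without bnagrp3 replicates 1, 2 and 3 and 7 without WT replicate 3. The TIFY 7 copy BnaA07G0320600ZS was not called with WT replicate 1, WT replicate 3, bnagrp3 replicate 2 or bnagrp3 replicate 3 left out (highest adjusted p = 0.111), nor the TIFY 10A model with any single library but WT replicate 2 left out (highest 0.18). The LOX2 sum was not called with WT replicate 1, WT replicate 3 or bnagrp3 replicate 2 left out (highest adjusted p = 0.0716), nor the TIFY 7 sum, whose difference was 0.90 (SE 0.29, adjusted p = 0.0346), with WT replicate 1, WT replicate 3, bnagrp3 replicate 2 or bnagrp3 replicate 3 left out (highest 0.173).

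Genes of sugars, raffinose, trehalose and starch were called at 35 higher (14.8%) and 46 lower (19.4%) of 237 tested, with a median of 0.05. An RFS6 copy, BnaA02G0084600ZS, annotated as a raffinose-type galactosyltransferase, was listed at 0 in each library of WT and at 19.6, 17 and 20.7 TPM in bnagrp3 (adjusted p = 2.48e-05), while the difference of its product, summed over 6 genes, was -0.33 (SE 0.28, adjusted p = 0.429). A sucrose synthase 3 copy, BnaC09G0008900ZS, at 2.38, 35.3 and 14.3 against 54.3, 46.3 and 47.4 TPM, was called (adjusted p = 0.0474), but not with any single library but WT replicate 2 left out (highest adjusted p = 0.222). Its sum was higher (0.55, adjusted p = 0.0217) but not with WT replicate 1, WT replicate 3 or bnagrp3 replicate 1 left out. SWEET11, a sucrose exporter, had a copy, BnaA01G0222300ZS, at 31.8, 20.9 and 24.8 TPM in WT and 4.25, 4.47 and 5.43 TPM in the mutant (-2.22, SE 0.18, adjusted p = 4.41e-07), against a summed difference of -0.20 (SE 0.07, adjusted p = 0.0574). An alpha-amylase 2 copy, BnaC06G0421300ZS, fell from 20.7, 21.5 and 22.7 to 4.16, 5.92 and 4.74 TPM (-1.94, SE 0.16, adjusted p = 6.39e-07), and the AMY2 sum fell with it (-1.24, adjusted p = 3.8e-05). There were 36 higher and 47 lower without WT replicate 2. Higher members were 20 to 22 with any other library left out, 20 with 35 lower without WT replicate 1, and 15 with the 4 h libraries alone, where 20 were lower.

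Wall-loosening genes, the expansins and XTHs (xyloglucan endotransglucosylase/hydrolases), were lower in 32 (22.5%) and higher in 8 (5.63%) of 142 tested, with a median of -0.13. An expansin-like B1 copy, BnaA03G0438000ZS, was at 19.8, 10.5 and 13.2 TPM in WT and at 0 in each library of the mutant (adjusted p = 6.86e-10). Its sum was lower (-0.80, adjusted p = 0.0174), though not with WT replicate 1, WT replicate 3, bnagrp3 replicate 2 or bnagrp3 replicate 3 left out. XTH24 copies went both ways, BnaC01G0083800ZS at 9.52, 9.66 and 13.5 TPM in WT and 60.6, 44.9 and 52.6 TPM in bnagrp3 (2.18, SE 0.36, adjusted p = 0.000585) and BnaA08G0155600ZS at 18.9, 9.13 and 15.8 against 0, 5.71 and 4.34 TPM (adjusted p = 0.0125). The XTH24 sum was not called (0.24, adjusted p = 0.325). An expansin A5 copy, BnaA09G0043500ZS, was higher, at 0, 7.48 and 2.86 against 10.2, 9.12 and 10.1 TPM (adjusted p = 0.0443). The 8 EXPA5 genes together were lower, at 139, 94.9 and 118 TPM in WT and 80.2, 84.5 and 83 TPM in bnagrp3 (-0.49, SE 0.11, adjusted p = 0.00405). BnaA09G0043500ZS was not called with any single library but WT replicate 2 left out, nor BnaA08G0155600ZS with WT replicate 1 left out (highest adjusted p = 0.201 and 0.0528). Without WT replicate 1 there were 21 lower and 6 higher, without WT replicate 2 there were 35 and 12, and 19 were lower with the 4 h libraries alone. Higher members were 5 without WT replicate 3 or bnagrp3 replicate 1.

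Wax, cutin and lipid transfer genes, which build the leaf cuticle, were lower in 43 (23.9%) and higher in 13 (7.22%) of 180 tested, with a median of -0.19. A pair of lipid transfer protein genes were above 0 only in the WT libraries at 4 h, BnaA04G0243400ZS at 141, 52.3 and 133 TPM against 0 in each library of the mutant, and BnaA03G0352900ZS at 21, 34.4 and 20.8 TPM against 0 in each library (adjusted p = 1.14e-09 and 1.3e-06). A CER3 copy of wax alkane synthesis, BnaC03G0126500ZS, rose from 3.11, 0.56 and 1.07 to 5.61, 3.93 and 7.45 TPM (adjusted p = 0.00887), and its sum was not called (0.05, adjusted p = 0.751). Another lipid transfer gene, BnaC03G0428100ZS, rose from 18.8, 13.3 and 28.8 to 61.1, 52.7 and 41.3 TPM (1.35, SE 0.30, adjusted p = 0.00488). The 27 genes of the product to which BnaA03G0352900ZS and BnaC03G0428100ZS are assigned were lower on their sum, with a difference of -0.66 (adjusted p = 0.000739). Of the epidermis and trichome markers, 10 of 26 tested were lower (38.5%) and 4 higher (15.4%), with a median of -0.29. Their sum was 443, 333 and 390.2 TPM in WT and 316, 277 and 289 TPM in the mutant. By symbol, FDH (160 to 197 TPM in WT, 124 to 142 TPM in the mutant) was lower without overlap. So were PDF1 (90.2 to 161 against 69 to 84.2 TPM) and the weak GL1. ANL2 (34.2 to 41.2 against 38.8 to 42.9 TPM), ATML1 (20 to 24.2 against 22.5 to 23.5 TPM), PDF2, GL2 and GL3 overlapped between genotypes. No epidermal marker was at 0 in all libraries, the lowest being GL2 at 0.09 to 0.49 TPM, and the part of the epidermis in the result was not tested. Lower epidermal markers numbered 5 without WT replicate 1, 6 without WT replicate 3 or bnagrp3 replicate 2 or 3, 10 without WT replicate 2 and 0 with the 4 h libraries alone. Members of the wax list numbered 28 lower and 10 higher without WT replicate 1, 55 and 14 without WT replicate 2 and 21 and 7 with the 4 h libraries alone.

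Photosynthesis genes had copies that differed while the product's sum did not pass the test, and others where both differed. Of 247 tested, 45 were lower (18.2%) and 24 higher (9.72%), with a median of -0.03 that was 0.01 after median-of-ratios rescaling. An LHCB4.1 copy for the antenna protein CP29, BnaC02G0001800ZS, fell from 222, 428 and 213 TPM to 0.75, 0.63 and 0.81 TPM (-7.31, SE 0.33, adjusted p = 1e-09). The 6 LHCB4.1 genes together stood at 991, 1182 and 1056 TPM in WT and 1288, 1161 and 1177 TPM in bnagrp3, a difference of 0.17 (SE 0.07, adjusted p = 0.0918). A PSBY copy of photosystem II, BnaC06G0341400ZS, fell from 149, 71.2 and 111 to 6.71, 8.1 and 9.45 TPM (adjusted p = 1.19e-07), with a summed difference of -0.18 (adjusted p = 0.0497, not called with any single library left out). A PSAF copy of photosystem I, BnaC07G0125200ZS, rose from 44.9, 11.7 and 18.9 to 281, 249.5 and 247 TPM (adjusted p = 5.45e-06), with a summed difference of 0.10 (adjusted p = 0.22). A PSAN copy, BnaA01G0179200ZS, rose from 0.18, 1.52 and 0.08 to 20.9, 7.9 and 6.95 TPM (adjusted p = 3.81e-05), with a summed difference of 0.23 (adjusted p = 0.0728). The LHCB4.1 and PSAN sums were called without WT replicate 2. The list had 45 members higher and 47 lower without WT replicate 2, and 16 and 30 without WT replicate 1; the 4 h libraries alone gave 9 higher and 21 lower.

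CURT1B, which bends thylakoid membranes, fell both as a copy and as a product. BnaA04G0295500ZS stood at 1188, 368 and 1026 TPM in WT and 5.82, 5.42 and 5.86 TPM in the mutant (-6.84, SE 0.31, adjusted p = 8.87e-10), and the sum of 4 genes at 1763, 855 and 1586 against 473, 485 and 479.9 TPM (-1.48, SE 0.19, adjusted p = 7.94e-05).

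Cytosolic ribosomal protein genes were lower in 113 (14.8%) and higher in 35 (4.58%) of 765 tested, with a median of -0.16. The share lower was thus near that over all genes and the share called, 19.3%, below the 23.6% over all genes. RPS23B in BnaC03G0012500ZS stood at 76.7, 24.8 and 68.3 TPM in WT and 0, 0.35 and 0 TPM in the mutant (adjusted p = 3.35e-08), and RPS28C in BnaA02G0014200ZS at 56.2, 16.5 and 59 TPM against 0 in each library (adjusted p = 0.0012). Their sums were lower, with differences of -0.39 (adjusted p = 0.00773) and -4.55 (adjusted p = 0.0285), the latter not called with WT replicate 1, WT replicate 3, bnagrp3 replicate 1 or bnagrp3 replicate 2 left out. RPL13AD in BnaA09G0050200ZS, at 0, 7.46 and 1.86 against 12.7, 13.7 and 12.1 TPM (adjusted p = 0.0255), and RPL36B in BnaC07G0187600ZS, at 0.05, 3.37 and 0.6 against 5.39, 4.69 and 5.88 TPM (adjusted p = 0.0116), were higher. The former was not called with any single library but WT replicate 2 left out and the latter with WT replicate 1 left out (highest adjusted p = 0.128 and 0.0617). Neither rise was seen on the sum, at -0.40 (adjusted p = 0.0473) for RPL13AD, not called with any single library but WT replicate 2 left out, and -0.20 (adjusted p = 0.206) for RPL36B. The class summed to 24600, 23330 and 25450 TPM in WT and 21850, 21400 and 22880 TPM in bnagrp3, with each mutant library under each WT library. There were 22 higher and 76 lower without WT replicate 1, 52 and 134 without WT replicate 2, and 11 and 88 with the 4 h libraries alone.

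Circadian clock genes were lower in 21 (20.6%) and higher in 13 (12.7%) of 102 tested. LHY, a morning MYB factor, had all 5 tested copies lower, among them BnaC03G0001300ZS at 5.49, 3.56 and 6.6 TPM in WT and 0.47, 0.32 and 0.27 TPM in the mutant (-2.17, SE 0.20, adjusted p = 2.09e-06). Its sum was 27.8, 15.9 and 23.4 TPM against 4.28, 4.18 and 3.92 TPM (-2.16, SE 0.24, adjusted p = 2.53e-05). A REVEILLE 4 copy, BnaC03G0011800ZS, was lower, at 6.49, 3.29 and 5.99 against 0.84, 0.43 and 0.22 TPM (adjusted p = 2.6e-06). Its sum was lower too (-0.40, adjusted p = 0.00411). An unplaced model of ELF4, of the evening complex, rose from 2.03, 2.08 and 2.78 to 5.92, 4.45 and 6.46 TPM (1.0, SE 0.15, adjusted p = 0.000291) and a COR27 copy, BnaA06G0444700ZS, from 5.3, 6.54 and 9.65 to 14, 13.4 and 16.8 TPM (adjusted p = 0.00183). The COR27 sum rose (0.82, adjusted p = 0.0065) and the ELF4 sum was not called (0.37, adjusted p = 0.144). There were 8 higher and 17 lower without WT replicate 1, 14 and 22 without WT replicate 2, and 8 and 12 with the 4 h libraries alone.

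Disease resistance receptors of the NLR class were higher in 26 (10.1%) and lower in 45 (17.4%) of 258 tested, shares near those over all genes. They numbered 18 and 37 without WT replicate 1, 31 and 48 without WT replicate 2 and 14 and 30 with the 4 h libraries alone. Unplaced RPP8-like 2 models were found on both sides. One was at 0 in each library of WT and 27.3, 27.8 and 28.3 TPM in bnagrp3, another at 0.19, 1.08 and 0.66 against 9, 7.52 and 9.3 TPM, and another at 6.84, 8.47 and 6.44 against 0.54, 0.66 and 1.08 TPM (adjusted p = 3.63e-05, 3.35e-05 and 1.44e-08). The sum of 11 genes was higher (0.99, adjusted p = 1.58e-05). An RF45 copy, BnaC09G0195100ZS, fell from 10.2, 1.47 and 5.65 to 0.03, 0.03 and 0.08 TPM (adjusted p = 0.000225) and its sum fell too (-1.71, adjusted p = 0.00126). Transposon-type genes were higher in 59 (29.5%) and lower in 33 (16.5%) of 200 tested, and their median was 0.38. The named ones were all unplaced models. The risen ones were led by a transposase-like gene at 0 in each library of WT and 13.3, 11.3 and 12.7 TPM in the mutant, and an RE2 polyprotein at 0, 0.01 and 0.01 against 10.4, 7.71 and 8.76 TPM (adjusted p = 0.000166 and 6.79e-06). Those that fell were led by a ribonuclease H type gene at 5.78, 13.8 and 6.66 against 0.06, 0.05 and 0 TPM, and an AC transposase at 9.41, 4.86 and 6.95 TPM against 0 in each library (adjusted p = 4.75e-06 and 5.07e-09). None of the 4 was called on the sum, at 0.07 (adjusted p = 0.755), 0.27 (adjusted p = 0.398), 0.53 (adjusted p = 0.122) and 0.06 (adjusted p = 0.832), the third called without bnagrp3 replicate 2. There were 47 higher and 28 lower without WT replicate 1 and 58 and 45 without WT replicate 2. The median of the transposon-type genes was 0.26 without WT replicate 2 and 0.22 without bnagrp3 replicate 3, and 39 were higher and 18 lower with the 4 h libraries alone.

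**Figure D2:**
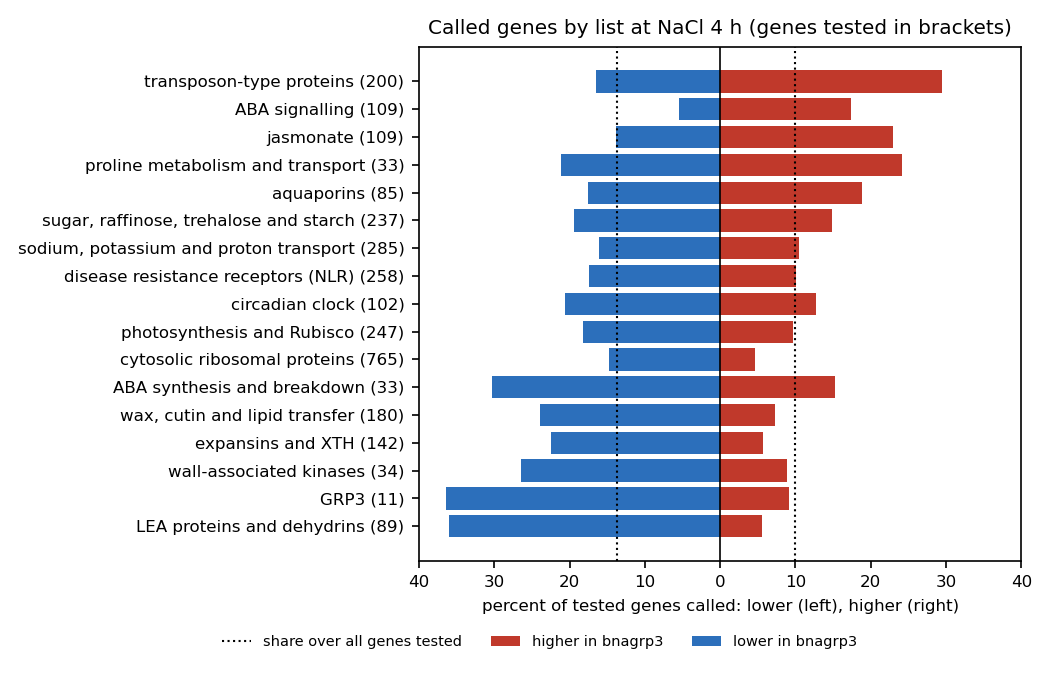
Percent of the tested members of 17 gene lists called lower (left, blue) and higher (right, red) in bnagrp3 at NaCl 4 h, with the number tested in brackets and dotted lines at the shares over all genes tested, 13.7% lower and 9.89% higher. LEA proteins and dehydrins lie farthest to the low side after GRP3, and transposon-type, proline and jasmonate genes reach farthest to the high side.

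The other 19 lists, from WRKY factors to cell division genes, had between 14.1% and 30.9% of their members called and medians between -0.14 and 0.14. Of 538 cellulose, pectin and structural wall genes 121 were lower (22.5%) and 45 higher (8.36%). For 555 cell division genes these were 112 (20.2%) and 44 (7.93%), and for 189 salicylate and defence genes 38 (20.1%) and 12 (6.35%). Of 115 glucosinolate genes 22 were higher (19.1%) and 13 lower (11.3%). In this order the counts were 86 and 23, 67 and 25, 26 and 7, 12 and 13 without WT replicate 1. Without WT replicate 2 they were 140 and 67, 138 and 53, 38 and 17, 35 and 15.

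Among single genes outside these lists, the deepest falls were of transcripts that were all but missing from the mutant. BBD1, a bifunctional nuclease, had a copy, BnaC02G0286800ZS, at 291, 286 and 297 TPM in WT and 0 in each library of bnagrp3 (adjusted p = 3.05e-16). ECS1 in an unplaced model stood at 437, 265 and 339 against 0.34, 0 and 0 TPM (-8.27, SE 0.26, adjusted p = 1.73e-11). A METTL7A copy, BnaC06G0360100ZS, stood at 367, 117 and 253 against 0.46, 0.53 and 1.36 TPM (-7.00, SE 0.44, adjusted p = 3.52e-08). All 7 METTL7A genes together, at 3315, 3196 and 3484 against 2976, 2712 and 2851 TPM, were not called (-0.23, adjusted p = 0.0621). Both named metallothionein genes, which code for metal-binding proteins, were at 0 in the mutant, with BnaC02G0005000ZS at 308, 168 and 270.4 TPM and BnaC09G0617900ZS at 204, 188 and 167 TPM in WT (adjusted p = 5.32e-12 and 4.4e-08). The sum of their product over 3 genes was lower, at -1.67 (adjusted p = 1.33e-05). Likewise at 0 were an unplaced defensin model with 195, 281 and 204 TPM in WT, and a copy of the secreted peptide PSY2, BnaA06G0177400ZS, with 127, 160.4 and 143 TPM (adjusted p = 9.33e-14 and 2.55e-09). On the sum PSY2 went the other way, from 727, 1186 and 688 TPM in WT to 1573, 1602 and 1569.6 TPM in bnagrp3 (0.91, SE 0.16, adjusted p = 0.00101). The sum of the defensin product over 10 genes was not called with all libraries at 0.52 (adjusted p = 0.138), but was called without WT replicate 2 or bnagrp3 replicate 1.

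The largest rises had the reverse form. RGGA, an RNA-binding protein, was at 0, 0.12 and 0 TPM in WT and 53.2, 49.3 and 49.4 TPM in bnagrp3 in an unplaced model (5.64, SE 0.59, adjusted p = 7.9e-06). MCD1, which places the chloroplast division site, was at 0, 0.04 and 0 against 41.2, 54.3 and 46.9 TPM in BnaA10G0109000ZS (5.57, SE 0.12, adjusted p = 2.8e-13). Both sums rose, by 1.49 (adjusted p = 0.00263) for RGGA and 1.22 (adjusted p = 1.56e-05) for MCD1. Listed at 0 in all WT libraries were copies of the methionine aminopeptidase MAP2B (BnaC02G0350700ZS, 47.2, 42.5 and 26.3 TPM in the mutant), of the dehydroascorbate reductase DHAR3 (BnaC03G0065300ZS, 31.7, 32.8 and 31.5 TPM) and of the plastid glucose transporter At1g05030 (BnaA10G0036000ZS, 28.7, 25.6 and 25.9 TPM). Their adjusted p were 1.17e-06, 0.000134 and 3.75e-05. The sums of MAP2B and DHAR3 rose by 0.94 (adjusted p = 0.000175) and 0.99 (adjusted p = 0.00144). A pectinesterase PME47 copy, BnaC09G0596400ZS, rose from 0.66, 0.79 and 0.55 to 41.7, 38.8 and 37.3 TPM (4.60, SE 0.41, adjusted p = 1.5e-06).

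Transcripts of this one-sided kind were counted by a fixed rule, at most 0.2 TPM in all 3 libraries of one genotype and at least 5 TPM in all 3 of the other. By it 199 genes were low in bnagrp3 and 83 low in WT. Of the 199, 172 stayed at or under 0.2 TPM in all 9 mutant libraries of the series, and 126 met the rule in mock and 164 at 8 h as well. Of the 83, 8 stayed at or under 0.2 TPM in all 9 WT libraries, and 7 met the rule in mock and 22 at 8 h. Unplaced gene models made up 66 of the 199 and 49 of the 83. Since the rule asks for every library, leaving one out cannot lower these counts. They were 368 and 126 without WT replicate 2, against 215 to 252 and 94 to 107 with any other single 4 h library left out.

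Summing copies by product gave a second view of the same libraries. Of 13876 products, 3408 were called (24.6%), 1327 higher (9.56%) and 2081 lower (15.0%). Among products with copies called in 1 direction only, 2676 of 5233 were also called on the sum. Among products with copies called in both directions the share was 398 of 1325. A product of 1 gene, such as At1g05030, has a sum equal to that gene and cannot have copies called in both directions. The 2 shares are therefore not a like comparison. Without WT replicate 1 and without WT replicate 3 the called products fell to 2081 and 2245, and with the 4 h libraries alone to 1836.

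Product sums that fell were led by BBD1, at 291, 347 and 343 TPM in WT and 0 in each library of the mutant (adjusted p = 2.72e-17). ECS1 fell from 818, 497 and 649.8 to 11.8, 19.6 and 7.85 TPM (-5.60, SE 0.31, adjusted p = 2.03e-08), and FLA20, a fasciclin-like arabinogalactan protein of the cell wall, from 107, 19.6 and 77.4 to 0.27, 0.68 and 0.31 TPM (-5.31, SE 0.43, adjusted p = 1.01e-06). The cystatin CYS7 and the UPF0725 protein At4g17990 were at 0 in the mutant, against 38.4, 33.5 and 39.6 TPM and 19.6, 35 and 24.8 TPM in WT (adjusted p = 2.88e-14 and 2.14e-08). Rises were led by TOM6, a subunit of the mitochondrial import receptor, at 0 in each library of WT and 20.6, 21.1 and 58.9 TPM in bnagrp3, and by At1g05030, whose only gene is described above. PME47 rose from 0.89, 1.47 and 0.78 to 42.4, 39.1 and 38.1 TPM (4.33, SE 0.38, adjusted p = 2.4e-06) and the rRNA processing protein tsr2, named after its zebrafish entry, from 9.13, 18.1 and 11.3 to 96.7, 71.4 and 88.3 TPM (2.69, SE 0.26, adjusted p = 6.59e-06). The p24 family protein At1g09580 stood at 0.35, 30.8 and 26.8 against 79.1, 82.1 and 78.1 TPM. TOM6 and At1g09580 were called (adjusted p = 0.0278 and 0.0489). TOM6 was not called with any single library but WT replicate 2 left out (highest adjusted p = 0.0901), nor At1g09580 with WT replicate 1, bnagrp3 replicate 1, bnagrp3 replicate 2 or bnagrp3 replicate 3 left out (highest 0.244).

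The genotype difference at 4 h was then set beside that in mock and at 8 h, which come from other libraries. In mock 21.5% of genes tested were called and at 8 h 23.4%. Of the 13671 genes called at 4 h, 6810 were called in the same direction in mock, which is 49.8% of the 4 h calls and 54.6% of the mock calls, and 124 in the opposite direction. With 8 h, 8905 were shared in direction, 65.1% of the 4 h and 65.6% of the 8 h calls, and 29 were opposite. A core of 5908 genes was called in the same direction in all 3 conditions. At 4 h alone 3752 were called, but a call in 1 condition is no test of a difference, and 217 of these also passed the test of 4 h minus mock and 1 that of 4 h minus 8 h.

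That test compares the genotype difference at 4 h with the one in mock. It called 1426 genes (2.46%), 662 with a positive (1.14%) and 764 with a negative value (1.32%). The test against 8 h called 4 genes (0.00691%), and 4426 had an unadjusted p under 0.05. On product sums the mock test called 880 of 13876 (6.34%). Of 917 genes called both at 4 h and in the mock test, 835 had a 4 h difference on the same side as the test value, 328 higher and 507 lower in bnagrp3. The mock test called 2545 genes without WT 4 h replicate 2 and between 651 (without bnagrp3 mock replicate 2) and 822 (without WT mock replicate 1) when 1 of those 2 libraries, bnagrp3 mock replicate 3, WT 4 h replicate 3 or any mutant 4 h library was left out. The 12 mock and 4 h libraries fitted alone gave 712.

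LEA proteins were among the genes whose level in bnagrp3 was lower, beside WT, at 4 h than in mock. Of the 89 tested, 11 had a negative 4 h minus mock value and none a positive one (21 negative without WT 4 h replicate 2, and 7 without bnagrp3 mock replicate 2, bnagrp3 4 h replicate 2 or 3, or WT 4 h replicate 3). The RAB18 copy BnaC02G0556300ZS stood at 0.49, 0.35 and 0.99 TPM in WT mock and 0.47, 0.64 and 0.44 TPM in bnagrp3 mock, far under the 4 h levels of both genotypes given above. The LEA14 copy BnaC03G0000500ZS was at 0.24, 0 and 0 TPM in WT mock and at 0 in each library of the mutant in mock. This copy was at 0 in the mutant at 4 h too, so its 4 h minus mock value is the rise in WT alone. NCED3 in BnaC05G0457600ZS stood at 1.27, 1.05 and 1.15 TPM in WT mock and 1.17, 2.33 and 1.89 TPM in bnagrp3 mock, and at 8 h at 40.1, 38.3 and 39.7 TPM in WT and 36.1, 36.4 and 34.3 TPM in bnagrp3. Its genotype difference was thus -0.94 at 4 h, 0.35 in mock and -0.14 at 8 h, with an adjusted p of 0.00433 for 4 h minus mock and 0.267 for 4 h minus 8 h. On the NCED3 sum 4 h minus mock was -0.40 and not called (adjusted p = 0.152), except without WT 4 h replicate 2.

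Other genes with a product known from plants had a larger fall at 4 h than in mock by the same test (adjusted p of 4 h minus mock at most 0.00155 for those of this paragraph). BFT, a floral repressor of the FT family, was at 98.5, 39.4 and 89.8 TPM in WT and 4.47, 5.68 and 6.89 TPM in bnagrp3 at 4 h in BnaA06G0273500ZS, and under 1 TPM in every mock library (-3.44, SE 0.28, adjusted p = 6.07e-07). DFRA, an enzyme of anthocyanin synthesis, was at 25.9, 26.7 and 29 against 1.84, 1.03 and 0.86 TPM in BnaC09G0215200ZS (-3.67, SE 0.26, adjusted p = 1.16e-07), and in WT mock at 1.61, 4.38 and 1.95 TPM. The sums were lower at 4 h as well, at -2.40 for BFT and -2.16 for DFRA (adjusted p = 0.000187 and 4.92e-05). The DFRA sum passed the test of 4 h minus mock (adjusted p = 0.00543). The BFT sum did not (adjusted p = 0.106) and was already lower in mock (-1.05, adjusted p = 0.0375). A carboxylesterase 5 copy, BnaA06G0034600ZS, fell from 308, 53.6 and 227 to 0.53, 0.69 and 0.63 TPM, and the carboxylesterase gene Bnascaffold2439G0000100ZS (CXE20) from 36.7, 34.3 and 22.8 TPM to 0 in each library. An endochitinase copy, BnaA05G0039200ZS, fell from 104, 94.8 and 82.8 to 16.6, 16.9 and 15.9 TPM, and a CIPK14 copy, BnaC02G0000900ZS, a kinase switched by calcium sensors, from 73.8, 61.1 and 51.3 to 0.04, 0.18 and 0.42 TPM (adjusted p at 4 h between 2.28e-10 and 7.06e-06 for these 4). On the sum the 4 h minus mock value was called for CXE20 (-0.47, adjusted p = 0.0243) and the endochitinase CHI (-1.03, adjusted p = 0.0311). The former was lost without WT 4 h replicate 3, bnagrp3 4 h replicate 2 or bnagrp3 mock replicate 3, and the latter without WT 4 h replicate 1, any mutant 4 h library or bnagrp3 mock replicate 1 or 2. It was not called for CXE5 (-1.54, adjusted p = 0.0596) or CIPK14 (-0.11, adjusted p = 0.668). In mock the DFRA, CXE5 and CIPK14 copies were lower in the mutant as well (-0.79, -1.77 and -3.07, adjusted p = 0.0412, 0.00929 and 2.47e-07). The BFT, CXE20 and endochitinase copies were not called in mock (-0.43, -0.58 and 0.40, adjusted p = 0.311, 0.202 and 0.295).

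Genes whose difference was more positive at 4 h than in mock included a transcription factor and wall polysaccharide synthases. HSFA6b, a heat stress factor linked to ABA in Arabidopsis, rose from 4.16, 3.77 and 4.22 TPM in WT to 29.3, 26.7 and 26.6 TPM in bnagrp3 at 4 h in BnaA03G0373700ZS (2.50, SE 0.18, adjusted p = 1.35e-07), and stood at 0.77, 1.07 and 0.17 TPM in WT mock and 0.2, 0.1 and 0.39 TPM in mutant mock. Its sum rose from 21.5, 30.6 and 30.5 to 75.8, 72.1 and 68 TPM (1.37, SE 0.19, adjusted p = 0.000167), with 3 of 7 tested copies called higher. CSLA10, a glucomannan synthase, had all 3 copies higher, with BnaA07G0112700ZS at 3.68, 6.72 and 3.73 against 16.6, 25.1 and 17.4 TPM (1.87, SE 0.20, adjusted p = 1.03e-05), although in mock the same copy was lower in the mutant (-0.93, adjusted p = 0.00424). The related CSLA1 copy BnaC07G0410500ZS stood at 5.16, 13.4 and 4.16 against 20.1, 32.2 and 22.6 TPM (adjusted p = 0.00064). On the sum the 4 h minus mock value was 1.48 for HSFA6b, 2.41 for CSLA10 and 1.52 for CSLA1 (adjusted p = 0.0073, 0.000828 and 0.0595). A glutathione-degrading GGCT2;2 copy, BnaC01G0075500ZS, was likewise higher at 4 h, at 6.48, 6.35 and 6.4 against 21.6, 16 and 15.7 TPM (1.33, SE 0.14, adjusted p = 8.62e-06), and lower in mock (-0.99, adjusted p = 0.000167). An asparagine synthetase copy, BnaC03G0617300ZS, rose from 7.15, 12.3 and 16 to 49.5, 45.1 and 41.9 TPM, the defensin-like trypsin inhibitor ATTI1 in BnaA05G0039000ZS from 0.91, 1.09 and 0.67 to 6.42, 19.4 and 15.1 TPM, and tsr2 in BnaA08G0096900ZS by 2.69 log2 units (adjusted p = 0.00038, 1.49e-05 and 5.46e-06). The sums of GGCT2;2, asparagine synthetase and ATTI1 were higher at 4 h, by 0.93 (adjusted p = 8.17e-06), 1.08 (adjusted p = 0.0163) and 0.43 (adjusted p = 0.0114), the second not called without WT replicate 2 or bnagrp3 replicate 3 and the third not without bnagrp3 replicate 2. The tsr2 gene was also higher in mock (0.85, adjusted p = 0.0376). The 4 h minus mock call of CSLA1 was lost without bnagrp3 4 h replicate 2, that of asparagine synthetase without bnagrp3 mock replicate 2 and that of tsr2 without WT 4 h replicate 3, among others (highest adjusted p = 0.0715, 0.0975 and 0.0614).

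**Figure D3:**
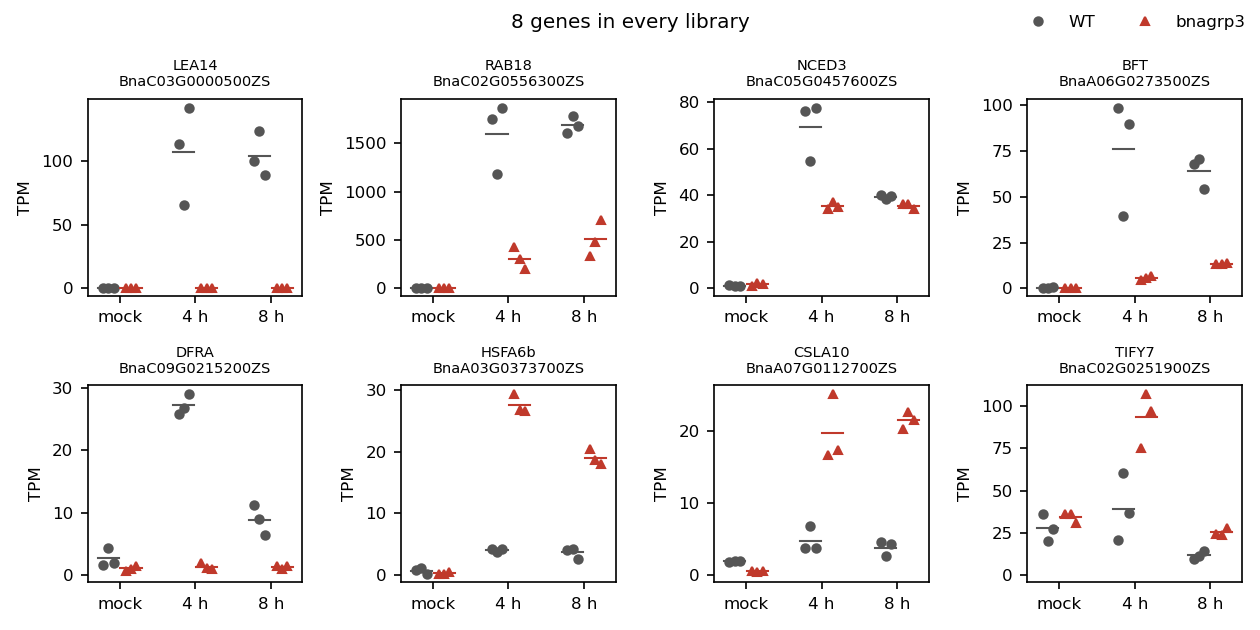
TPM of 8 genes in all 18 libraries, by condition on the horizontal axis, with circles for WT, triangles for bnagrp3 and a bar at each mean. At 4 h LEA14, RAB18, NCED3, BFT and DFRA stand higher in every WT library than in any mutant library, HSFA6b, CSLA10 and TIFY7 the reverse, and in mock the first 4 lie near 0 in both genotypes.

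Cytosolic ribosomal proteins had 63 members with a negative and 3 with a positive 4 h minus mock value, of 765 tested. The median genotype difference was 0.39 in mock, -0.16 at 4 h and near 0 at 8 h (-0.0031). The summed level was 28580, 41190 and 40340 TPM in WT mock and 43510, 48890 and 51480 TPM in bnagrp3 mock, so WT mock replicate 1 lay far below the others. Without that library 30 members were negative and the median of 4 h minus mock moved from -0.54 to -0.36. The count was 115 without WT mock replicate 2. It was 16 without bnagrp3 mock replicate 2, 17 without bnagrp3 mock replicate 3 or WT 4 h replicate 3, and 41 without WT 4 h replicate 1. Leaving out mutant 4 h replicates 1, 2 and 3 in turn gave 20, 26 and 33. Clock genes had 9 positive and no negative value of 102 (3 without bnagrp3 mock replicate 2, and 4 to 6 without bnagrp3 or WT mock replicate 1, any mutant 4 h library or WT 4 h replicate 1), and aquaporins 9 positive and 1 negative of 85 (14 positive without WT 4 h replicate 2, and 2 to 4 without bnagrp3 mock replicate 1 or 2, WT mock replicate 1 or 3, any mutant 4 h library or WT 4 h replicate 3).

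**Figure D4:**
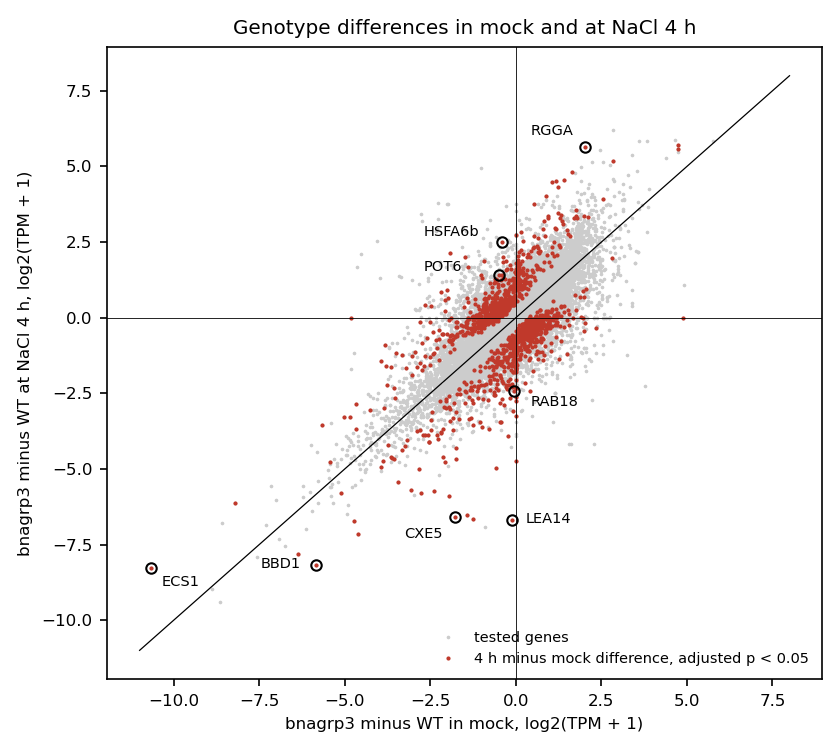
Genotype difference (bnagrp3 minus WT, log2(TPM + 1)) of each tested gene in mock (horizontal) and at NaCl 4 h (vertical), with the 1426 genes called in the 4 h minus mock test in red, the line of equal differences, and 8 genes named. LEA14 and RAB18 lie near 0 in mock and far below 0 at 4 h, HSFA6b lies above 0 at 4 h and slightly below it in mock, and ECS1 is farther from 0 in mock than at 4 h.

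Of the 4 genes called in the test against 8 h, only BRK1, a subunit of the WAVE actin regulator, in BnaC08G0442600ZS has an assigned product. It stood at 2.73, 5.68 and 4.71 TPM in WT and 0 in each library of bnagrp3 at 4 h, and at 0 in each library of WT and 3.27, 3.11 and 3.01 TPM in bnagrp3 at 8 h. The sum of 4 BRK1 genes was not called at 4 h (-0.27, adjusted p = 0.723). BnaC02G0480600ZS was at 18.5, 19.9 and 46.7 TPM in WT at 4 h and listed at 0 in all other groups of the series. An unplaced model of unknown product was at 10.5, 8.68 and 8.31 TPM in WT at 4 h and listed at 0 in all 9 mutant libraries, and in WT it stood at 1.67, 1.25 and 1.9 TPM in mock and 3.67, 3.23 and 3.09 TPM at 8 h. BnaA10G0206800ZS overlapped between genotypes at 4 h (52.1, 55.3 and 60.5 against 54.7, 53.7 and 48.9 TPM) and was higher in the mutant at 8 h (53.2, 46.5 and 53.7 against 83.1, 83 and 84.8 TPM). Counts this low change with single libraries: 26, 20, 13 and 12 genes were called without WT 4 h replicate 1, WT 4 h replicate 2, WT 8 h replicate 2 and WT 8 h replicate 3. Only 1 was called without replicate 3 of either genotype at 4 h or replicate 1 of either genotype at 8 h, and 2 without bnagrp3 8 h replicate 2. These 4 were named because the count was small, after their values were seen.

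Called genes were not spread evenly along the chromosomes. By chromosome in the gene identifiers, the percent called ran from 16.1% on A08 to 28.9% on A04, where 378 of 1630 tested genes were lower and 93 higher, and it was 35.2% among 6436 unplaced models. In 500 runs of 100 consecutive tested genes the median run had 21 called genes and the lowest 5. The first run of C03 had 78, of which 72 were lower in bnagrp3, and the second run of C03 had 60, of which 55 were lower. In the first run 33 genes stood at or under 0.2 TPM in all 3 mutant libraries at 4 h, against 1 gene in all 3 WT libraries. Both runs looked alike in the other conditions, with 79 and 55 called in mock and 82 and 56 at 8 h. LEA14, LHY, RVE4, RPS23B and SRK2G copies named above carry C03 identifiers of these 2 runs.

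The next runs were run 12 of 16 on A04 (61 called, 53 lower), the first of C09 (54 called, 43 lower) and the third of C09 (52 called, all lower). In the opposite direction the first run of A03 had 45 higher and 4 lower. On the summed level the runs were less extreme: of 66 products with a called copy in the first run of C03, 36 were called on the sum, and of 53 in the A04 run, 19. Runs follow the order of identifiers, which stands in for position, since no genome was used.

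**Figure D5:**
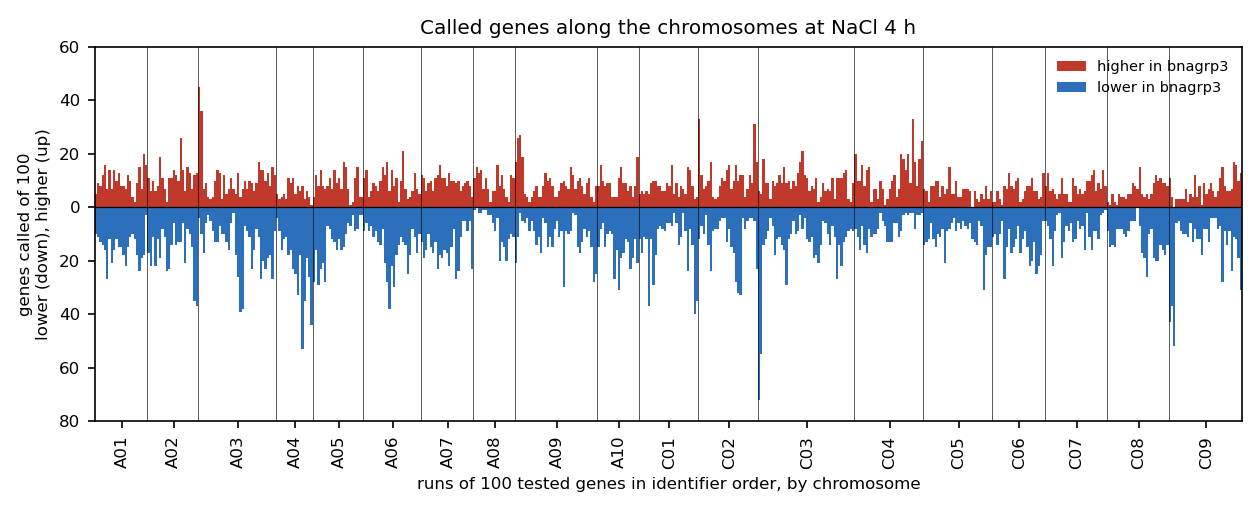
Number of genes called higher (up, red) and lower (down, blue) in bnagrp3 at NaCl 4 h in each of 500 runs of 100 consecutive tested genes, ordered by identifier within chromosomes A01 to C09. The first run of C03 reaches 72 lower genes and the first run of A03 45 higher genes, against a median of 21 called in either direction.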

How the data were processed

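Poly(A) RNA of 18 leaf libraries was sequenced by the authors, who deposited 1 table of TPM values for 108207 genes with product annotation. Per the submitters' processing notes, fastp, HISAT2 and featureCounts were used, with no versions given. Neither the genome build nor the strand setting nor the handling of reads that copies share is given in the sources used here. TPM keeps no depth, so no counting interval is given. Columns were matched to samples by title, and those headed 0 h by condition to mock.

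TPM were analysed as log2(TPM + 1) for 57923 genes with at least 1 TPM in at least 3 of 18 libraries. All 6 groups were fitted together with limma 3.58.1 (R 4.3.3; moderated test with intensity trend, 2-sided, Benjamini-Hochberg over all genes tested). The genotype difference at 4 h, and that difference minus the one in mock or at 8 h, were tested. TPM summed over genes with the same Swiss-Prot entry were fitted likewise. Other tables and the plots were made with Python 3.11.15 and matplotlib 3.10.9.

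Genes were listed by product name or symbol in 36 lists, of which 17 are described. The members and lists were chosen with earlier results of these data known. Named are all GRP3 genes, and from each list at most 2 genes per direction, those with the largest differences among called genes whose genotypes do not overlap and whose mean reaches 5 TPM. The largest differences among all genes, against mock and against 8 h, and on product sums, were named at 10 TPM. Genes of unknown product, and some that met the rule, are not named: 110 of 127 are. Unplaced gene models carry only a running number in the table and are named by product. Alternatives were pseudocount 0.1, no filter or a filter of 5 TPM, median-of-ratios and quantile scaling, only the groups compared in the fit, the replicate number as a block, and each library left out. Counts of list members, and of product sums against mock, with libraries left out were chosen after seeing the data. The tests were tried on simulated data first.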

Additional observations from a re-analysis of the deposited data

Results flagged for a closer look

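The genotype difference (bnagrp3 minus WT, log2(TPM + 1)) changed between NaCl 4 h and mock in 36 of the 110 named genes. It also changed in 24 product sums, of those that belong to named genes or were named as sums. Both counts are from limma's test of the difference itself at an adjusted p under 0.05. Over all features tested it called 2.46% of genes and 6.34% of product sums. Some of the named genes were chosen for large 4 h minus mock values in these same libraries. The counts of 36 and 24 are therefore partly fixed by that choice and are not shares to set beside these percents. Values below are the 4 h difference minus the mock difference. For genes at 0 in a group they depend on the pseudocount. Where a transcript was at 0 in the mutant both in mock and at 4 h, the value is the change in WT alone. This was so for the LEA14 copy, BnaC02G0480600ZS and the unplaced model of unknown product, among others.

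The value was negative, so the mutant stood lower beside WT at 4 h than in mock, for copies of LEA14 (-6.58), RAB18 (-2.35) and NCED3 (-1.29) of the ABA and drying response. It was also negative for WAK1 (-3.27), EXLB1 (-3.67) and the lipid transfer genes BnaA04G0243400ZS (-5.4) and BnaA03G0352900ZS (-2.92), which belong to the cell surface. Among enzymes and transport it was negative for AMY2 (-1.48), VHA-A (-1.63), CXE5 (-4.83), CXE20 (-4.4), DFRA (-2.88), the endochitinase CHI (-2.84) and BBD1 (-2.34). The others were BFT (-3.0), CIPK14 (-2.62), PSY2 (-2.55), an unplaced defensin model (-1.43), BnaC02G0480600ZS (-4.75), BnaA10G0206800ZS (-0.75) and an unplaced model of unknown product (-1.96).

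The value was positive for copies of HSFA6b (2.91), CSLA10 (2.81), CSLA1 (1.9), ATTI1 (2.68), GGCT2;2 (2.32), asparagine synthetase (1.84) and tsr2 (1.84). It was positive as well for POT6 (1.91), BGLU18 (0.86), RFS6 (3.08), RGGA (3.61), MCD1 (0.82), an unplaced transposase-like gene (3.22), an RE2 polyprotein (2.0), and for an ECS1 model (2.39), whose deficit in the mutant was smaller at 4 h than in mock. Of the 36, 28 stayed called when each mock or 4 h library was left out in turn. RFS6, the transposase-like gene, RE2, RGGA, MCD1, CSLA1, asparagine synthetase and tsr2 did not.

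On product sums the 4 h minus mock value was negative for WAK1 (-3.07), BBD1 (-2.51), DFRA (-2.16), CYS7 (-1.67), LEA14 (-1.55), RAB18 (-1.49), EXLB1 (-1.15), CHI (-1.03) and AMY2 (-0.96), and by less for RPL13AD (-0.81), RPS23B (-0.66), P5CSB (-0.5), PSBY (-0.49) and CXE20 (-0.47). It was positive for At1g05030 (3.05), CSLA10 (2.41), RGGA (2.3), tsr2 (1.84), HSFA6b (1.48), NIP6-1 (0.99), PSY2 (0.95), PIP2-1 (0.9), GGCT2;2 (0.75) and ATTI1 (0.65). For PSY2 the sum was thus positive and the named copy negative. The P5CSB and PIP2-1 sums were not called at 4 h (-0.04 and -0.26, adjusted p = 0.754 and 0.0787). In mock P5CSB was higher in the mutant (0.46, adjusted p = 0.000883) and PIP2-1 lower (-1.16, adjusted p = 3.84e-06). Of the 24 sums, 17 stayed called when each mock or 4 h library was left out in turn, and At1g05030, EXLB1, RPL13AD, PSY2, ATTI1, CXE20 and CHI did not. With all libraries the sums of NCED3, BFT, CXE5, CIPK14, VHA-A, POT6 and BGLU18 were not called, though their copies were. The same holds for RFS6, MCD1, CSLA1, asparagine synthetase, ECS1, the transposase-like gene, RE2 and the defensin (adjusted p of all these sums between 0.0595 and 0.668).

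Against 8 h, the 4 h difference minus the 8 h difference was -4.43 for BRK1, -4.75 for BnaC02G0480600ZS, -0.79 for BnaA10G0206800ZS and -1.23 for the same model of unknown product.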

How the results depend on the processing

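TPM carry no depth, the mutant is 1 line, mock is not matched in time of day, and no genome or read assignment was at hand, so single copies are less certain than product sums. No count changed by more than 1.5 times with pseudocount 0.1. With only the compared groups in the fit, 6371 genes were called at 4 h, 2427 higher and 3944 lower, 712 in 4 h minus mock and 1836 products. A 5 TPM filter left 3215 genes called with at least 1 log2 unit. In 4 h minus 8 h, 26 genes were called with no filter, 2 with a 5 TPM filter or median-of-ratios rescaling and 1 with quantile normalisation. One-sided transcripts of at least 10 TPM numbered 39 low in WT and 100 low in bnagrp3. Leaving out single libraries gave 9349 to 16933 genes at 4 h (3441 to 7622 higher, 5776 to 9311 lower, 4041 to 6875 with at least 1 log2 unit), 651 to 2545 in 4 h minus mock, 1 to 26 in 4 h minus 8 h, 2081 to 4106 products, and 94 to 126 and 215 to 368 one-sided transcripts low in WT and in bnagrp3. Same-numbered libraries at 4 h did not deviate together (correlations 0.000852, 0.000325 and 0.0216). With a replicate block 13203 genes at 4 h, 1304 in 4 h minus mock, 2 in 4 h minus 8 h and 3320 products were called. Of called genes 41.9% were higher, 47.4% after median-of-ratios rescaling and 48.6% after quantile normalisation. Of 100 named genes called at 4 h, 87 stayed called with each library left out, 99 without WT replicate 2 and 81 with the 4 h libraries alone, and no direction reversed. Named genes were mostly chosen for large differences in these same libraries, so these counts do not measure how stable the calls are over all genes. Medians of 36 lists moved past the replicate spread for 8 (pseudocount 0.1) to 17 (no filter). Apart from the settings themselves, which leave out genes or libraries, the cause of these changes was not tested.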
